A study of Mus musculus with 2 samples.

Results

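The miR-378 family comprises the mature mouse miRNAs mmu-miR-378a-3p, mmu-miR-378a-5p, mmu-miR-378b, mmu-miR-378c and mmu-miR-378d (the species prefix is left out below), taken by name from a single table of 2083 entries, of which 677 carry mouse miRNA names. All 5 members had a row in the table, and 4 of them reached 10 counts in at least 1 library. The family was selected on the counts and TPM of both libraries, which were known, so the values below describe the members and are not tested. Small RNA was sequenced from exosomes, the small membrane vesicles that cells release, shed by pancreatic islets of C57BL/6 mice. The NCD library came from mice on a normal chow diet with 4% fat, which the protocol calls the normal control diet, and the HFD library from mice on a high-fat diet with 60% fat. In both cases the islets were cultured for 1 week in medium freed of serum exosomes, the supernatant was taken daily, and vesicles were pelleted by ultracentrifugation. There was 1 library per diet, and the sources used here state neither the number of mice behind each nor their age and sex. No difference below therefore has a replicate check, and every interval covers counting error only.

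miR-378a is made from an intron of Ppargc1b, which encodes PGC-1beta, a coactivator that raises the expression of mitochondrial and fatty acid oxidation genes. The hairpin gives both a 3p and a 5p miRNA, and it is most abundant in tissues with high energy turnover such as skeletal muscle, heart, brown fat and liver. In mice the 2 arms have been reported to repress Crat, a carnitine acetyltransferase of mitochondria, and Med13, a subunit of the Mediator complex, and mice without the hairpin to resist weight gain on a high-fat diet. A miRNA recognises its targets mainly through bases 2 to 8, its seed.

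Sequences are shown for miR-378b, miR-378c and miR-378d, the 3 members with an entry in the sequence table used, because their likeness bears on how reads were divided within the family. They are RefSeq mature sequences on GRCm38.p6, read 5′ to 3′, with the seed in capitals.
miR-378b: cUGGACUUggagucagaaga
miR-378c: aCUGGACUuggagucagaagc
miR-378d: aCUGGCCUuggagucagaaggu
miR-378b lay at chr11:88352839-88352858 on the plus strand, miR-378c at chr14:46954905-46954925 on the minus strand and miR-378d at chr10:126710355-126710376 on the minus strand. With positions counted from 1 at the 5′ end of miR-378c, miR-378b began at base 2 and matched 19 of 20 bases, the exception being C21A. Because it starts 1 base later, its seed is shifted by 1 base against that of miR-378c. miR-378d matched 19 of 21 bases of miR-378c and differed by A6C, which lies within the seed, and by C21G. miR-378b and miR-378c shared an unbroken stretch of 19 bases, and both shared a stretch of 14 bases with miR-378d. Among the 1679 mature sequences of the RefSeq table none but these members had any of the 3 seeds. The table held 3 of the 5 members, so neither miR-378a-3p, which carried most of the family's counts, nor miR-378a-5p was compared in sequence or seed. The sources used here do not say how reads that match several members were counted, so the division of counts among miR-378a-3p, miR-378b, miR-378c and miR-378d is uncertain, and their sum is given as well.

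The 4 hairpin genes differ in position. In GENCODE M21 (GRCm38), Mir378a lay in an intron of Ppargc1b on the same strand, with a further miRNA gene, Gm25301, annotated across it on the opposite strand. Mir378b and Mir378c lay within introns of Msi2 and Samd4, but on the strand opposite to those genes. Mir378d overlapped no annotated gene, and the nearest protein-coding gene, Atp23, was 158036 bases away. Only Mir378a is thus encoded within Ppargc1b. The hairpins are shown with the mature miRNA in capitals, since the family name does not show which arm it occupies.
Mir378b hairpin: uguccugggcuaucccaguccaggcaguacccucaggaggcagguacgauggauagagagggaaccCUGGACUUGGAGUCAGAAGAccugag
Mir378c hairpin: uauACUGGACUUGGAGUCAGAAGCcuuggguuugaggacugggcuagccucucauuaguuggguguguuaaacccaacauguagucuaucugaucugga
Mir378d hairpin: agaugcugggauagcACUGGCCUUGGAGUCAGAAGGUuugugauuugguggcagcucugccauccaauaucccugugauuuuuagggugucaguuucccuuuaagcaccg
The mature miRNA occupied the 3′ side of the 92-base Mir378b hairpin (bases 67 to 86), as miR-378a-3p does in its own hairpin. In Mir378c it occupied bases 4 to 24 of 99, and in Mir378d bases 16 to 37 of 110, both on the 5′ side. In the minimum free energy fold, 15 of the 20 mature bases of miR-378b, 15 of 21 of miR-378c and 13 of 22 of miR-378d were paired.

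The libraries held 2417589 counts (NCD) and 2020831 counts (HFD), so that the upper limit left by a count of 0, taken as 3 counts, was 1.24 and 1.48 counts per 1000000 (CPM). miR-375-3p, the defining miRNA of islet endocrine cells, was abundant in both, with 81756 and 83261 CPM. The most abundant miRNA in each was the hepatocyte miRNA miR-122-5p. A level here is a share of a library's counts. A larger share of vesicles from a given cell type and more of a miRNA per vesicle cannot be told apart.

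The family was carried by miR-378a-3p, and each of the 4 measured members had the higher level in the HFD library. So did 248 of the 387 known miRNAs that reached 10 counts in either library, so this direction was not particular to the family. The hairpin gene of miR-378a-3p spans 61397835 to 61397900 on the minus strand of chromosome 18. This abundant arm had 1261 counts, or 522 CPM, in NCD. In HFD it had 3039 counts, or 1504 CPM. It ranked 78 among known miRNAs in NCD and 48 in HFD. Its level was 2.88-fold higher in HFD (95% exact counting interval 2.70 to 3.08), so the whole counting interval lay above 2-fold. miR-378c had 60 counts in NCD, or 24.8 CPM, and 210 in HFD, or 104 CPM, which placed it at rank 217 and rank 148. It was 4.19-fold higher (3.13 to 5.68). These were the 2 members past 2-fold in the log2 ratio with a pseudocount of 1 CPM, with log2 ratios of 1.53 and 2.02.

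The other 3 members were rare. miR-378a-5p, the minor arm of the Ppargc1b hairpin, had 18 counts in NCD and 26 in HFD (7.45 and 12.9 CPM). Its ratio was 1.73 (0.912 to 3.35), an interval that includes both 1 and the ratio of the 3p arm. miR-378b had 16 counts (6.62 CPM) and 28 (13.9 CPM), a ratio of 2.09 (1.09 to 4.14). With the pseudocount its log2 ratio was 0.96, just under the 2-fold rule, and it was past 2-fold with a pseudocount of 0.1 CPM. miR-378d was at 0 counts in NCD and 1 in HFD, both under the limit of 3 counts, so no fold is given, and it was not detectable as different at this depth. The plot of levels shows these differences in scale within the family.

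**Figure D1:**
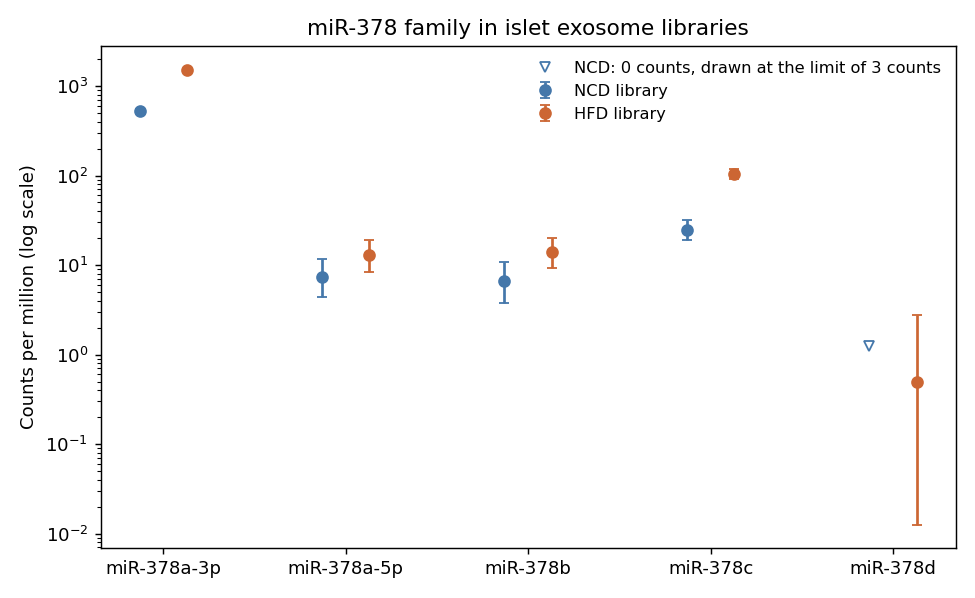
Level of each miR-378 member in CPM (log axis) in the NCD and HFD libraries, with 95% exact binomial intervals that cover counting error only. miR-378a-3p stands at 522 and 1504 CPM, miR-378c at 24.8 and 104 CPM, and miR-378d, with 0 and 1 counts, is drawn in NCD as an open triangle at the 3-count limit of 1.24 CPM.

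Of the 4 measured members, 2 were at least 2-fold higher and 0 at least 2-fold lower in HFD. Over the 387 measured known miRNAs, meaning those that reached 10 counts in either library, 25.3% were at least 2-fold higher and 9.56% at least 2-fold lower, with a median log2 ratio of 0.33. The choice of members used this contrast, so nothing is read from that comparison. In the set of 207 that reached 100 counts, of which 19.3% were at least 2-fold higher and 5.31% at least 2-fold lower, miR-378c ranked 12 and miR-378a-3p ranked 20 by log2 ratio.

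**Figure D2:**
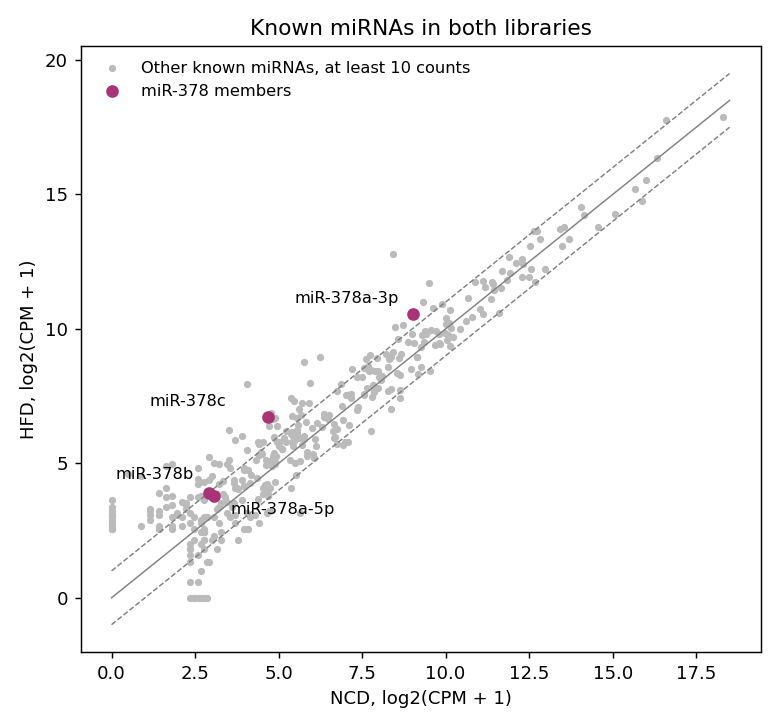
Level of each known miRNA that reached 10 counts in either library, as log2(CPM + 1) in NCD (x axis) and HFD (y axis), with the 4 measured miR-378 members in purple. The solid line marks equal levels and the dashed lines 2-fold differences, so that miR-378a-3p and miR-378c lie above the upper dashed line while miR-378b lies just under it at a log2 ratio of 0.96 and miR-378a-5p lower at 0.72.

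If each read was counted once, a sum over near-identical members does not depend on how reads were divided among them. The sources used here do not say whether reads were counted once, and miR-378a-3p was not compared in sequence. miR-378a-3p, miR-378b, miR-378c and miR-378d together had 1337 counts in NCD and 3278 in HFD (553 and 1622 CPM), a ratio of 2.93 (2.75 to 3.13) and a log2 ratio of 1.55. The 3 members encoded outside Ppargc1b together had 76 counts (31.4 CPM) and 239 counts (118 CPM), a ratio of 3.76 (2.89 to 4.94). The ratio of the sum was thus close to that of miR-378a-3p, which made up 93.1% (91.6 to 94.4) of the family's counts in NCD and 92.0% (91.0 to 92.9) in HFD. miR-378c made up 4.43% (3.40 to 5.66) in NCD and 6.36% (5.55 to 7.24) in HFD.

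**Figure D3:**
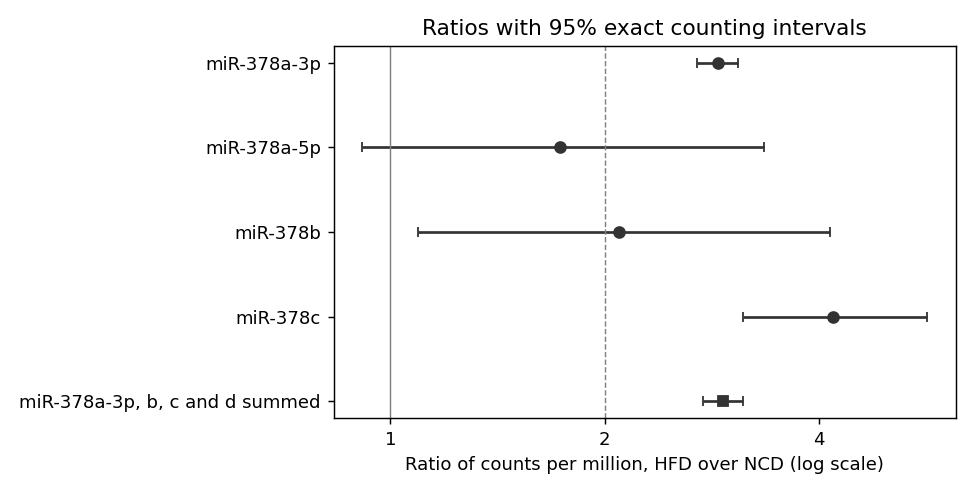
Ratio of CPM, HFD over NCD (log axis), for the 4 measured members (circles) and for miR-378a-3p, miR-378b, miR-378c and miR-378d summed (square), with 95% exact counting intervals. The solid line marks a ratio of 1 and the dashed line 2-fold, and the interval of miR-378c (3.13 to 5.68) lies above the point for miR-378a-3p (2.88), whereas those of miR-378a-5p and miR-378b span it.

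The members' own ratios can be set against each other without any scaling between the libraries. For every 100 counts of miR-378a-3p there were 4.76 of miR-378c in NCD and 6.91 in HFD, so the ratio of miR-378c was 1.45 times that of miR-378a-3p (exact counting interval 1.08 to 1.98). For miR-378b the numbers were 1.27 and 0.921 per 100, or 0.726 times (0.378 to 1.44). For miR-378a-5p they were 1.43 and 0.856, or 0.599 times (0.315 to 1.17). Of these 3 intervals only that of miR-378c left out 1, with a lower bound of 1.08, and it depends on how reads were divided between near-identical members. At this depth a difference between the ratios of the other 2 members and that of miR-378a-3p was not detectable.

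Within the miR-378a hairpin, the 3p arm took 98.6% (97.8 to 99.2) of the counts in NCD and 99.2% (98.8 to 99.4) in HFD. The arm shares thus overlapped in their counting intervals, and the 3p share was higher in HFD by 0.559 percentage points. Across the 101 hairpins with both arms named and 100 or more counts in either library, the more abundant arm held a median of 98.6% in NCD and 97.3% in HFD. The arm preference of miR-378a ranked 51 of 101 in NCD and 35 of 101 in HFD, and 63 hairpins had a larger shift between the libraries.

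The known miRNAs closest to miR-378a-3p by level in the 2 libraries, measured as Euclidean distance in log2(CPM + 1), were miR-30a-5p, miR-146a-5p, miR-22-3p, miR-26b-5p and miR-181a-5p. miR-30a-5p, at a distance of 0.52, had 634 CPM in NCD and 2029 CPM in HFD. miR-146a-5p, at 0.53, had 419 and 1118 CPM. The distance rests on 2 values per miRNA. The nearest to miR-378a-5p were miR-331-3p, miR-679-5p and miR-378b, at distances of 0.09, 0.09 and 0.18, followed by miR-205-5p and miR-700-3p, all with 16 to 28 counts in each library.

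miR-378a-3p differed in its ratio from miR-103-3p and miR-107-3p, 2 other miRNAs encoded in introns of metabolic genes. miR-103-3p, from the Pank2 and Pank3 genes of pantothenate kinases, which start coenzyme A synthesis, had 369 CPM in NCD and 325 CPM in HFD, a ratio of 0.881 (0.795 to 0.975). miR-107-3p, from Pank1, had 64.1 and 40.1 CPM, a ratio of 0.625 (0.472 to 0.823). For every 1000 counts of miR-103-3p there were 1415 of miR-378a-3p in NCD and 4633 in HFD, 3.27 times as many (exact counting interval 2.90 to 3.70). Against miR-107-3p the factor was 4.61 (3.47 to 6.16). The list of metabolic host genes held 9 names, of which 4 were measured, these 2 and the miR-378a arms. The other 5, both miR-33 arms among them, had no entry under those names in the deposited counts. Of the 4, 1 was at least 2-fold higher and 0 lower, beside 25.3% and 9.56% of all measured known miRNAs. The median log2 ratio of the 4 was 0.27, beside 0.33. It was -0.42 without the miR-378a arms and -0.18 with a minimum of 100 counts.

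In a wider list of 22 miRNAs tied to brown fat and insulin signalling, 5 of 17 measured members were at least 2-fold higher and 0 were lower, beside 25.3% and 9.56% of all measured known miRNAs. The share higher was near that background, and without the miR-378a arms it was 4 of 15. The median log2 ratio was 0.28, beside 0.33. The list held both arms of miR-378a and miR-455 but 1 arm of the others, so its counts depend on the arms chosen. Of arms left out, miR-193b-5p (log2 ratio -1.56) and miR-365-2-5p (-1.63) were at least 2-fold lower. miR-143-5p (3.63), miR-26a-2-3p (2.99) and miR-30b-3p (1.16) were at least 2-fold higher. miR-378a-3p was 1 of the 5 listed members at least 2-fold higher. The others were miR-455-5p and miR-455-3p, which promote brown adipocyte differentiation in mice, miR-196a-5p, which induces brown adipocytes in white fat of mice, and miR-30b-5p, which raises thermogenic gene expression in mouse fat. miR-455-5p had 98 counts in NCD and 343 in HFD (40.5 and 170 CPM), a ratio of 4.19 (3.34 to 5.30), the highest in the list. miR-455-3p had a ratio of 2.72 (1.92 to 3.90), miR-196a-5p, with 8 and 22 counts, of 3.29 (1.41 to 8.55), and miR-30b-5p of 2.56 (1.81 to 3.68). The most abundant member, miR-26a-5p, had a ratio of 1.22 (1.19 to 1.24). That of miR-143-3p was 1.19 (1.15 to 1.23) and fell below 1 with the median-of-ratios scaling. miR-130b-3p had the lowest ratio, 0.505 (0.350 to 0.719). miR-193b-3p and miR-365-3p, a cluster expressed in brown fat, were near the limit of detection, with 0 and 4 counts and with 2 and 3 counts. Their 5p arms, which the list did not hold, were measured and had lower levels in HFD. miR-193b-5p had 218 CPM in NCD and 73.2 in HFD, miR-365-1-5p 12.0 and 7.42, and miR-365-2-5p 12.8 and 3.46.

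Because miR-378a is abundant in muscle and liver, markers of these and of other cell types are given beside its values. Of 6 striated muscle miRNAs in the table, 4 were measured and all 4 were past 2-fold in the direction of HFD. The shares of all measured known miRNAs past 2-fold were 25.3% higher and 9.56% lower, which is also the background for the lists that follow. The median log2 ratio of the 4 was 2.72, beside 0.33. Their summed level over the 6 was 445 CPM in NCD and 7678 CPM in HFD. Most of that was miR-1a-3p, with 341 and 7084 CPM. miR-206-3p had 74.0 and 502 CPM, and miR-133a-3p 25.2 and 82.1 CPM. miR-133b-3p was at 0 counts in NCD and 11 in HFD, while miR-208b-3p (6 and 1 counts) and miR-499-5p (7 and 8 counts) were rare in both.

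For every 1000 counts of miR-1a-3p there were 1530 of miR-378a-3p in NCD and 212 in HFD, 0.139 times as many (exact counting interval 0.126 to 0.153). Against miR-206-3p the factor was 0.425 (0.356 to 0.506). Against miR-133a-3p it was 0.886 (0.644 to 1.20), an interval that includes 1, so the ratios of miR-378a-3p and miR-133a-3p were not told apart at this depth. The part of muscle RNA in the level of miR-378a-3p was not tested.

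Of 4 hepatic miRNAs, 2 were at least 2-fold higher and 0 lower, beside 25.3% and 9.56% of all measured known miRNAs, with a summed level of 322086 CPM in NCD and 245753 CPM in HFD. The 2 were miR-192-5p, with 726 and 3375 CPM, and miR-122-3p, with 34 and 128 counts (14.1 and 63.3 CPM). The abundant arm of the same hairpin, miR-122-5p, went the other way, with 321158 and 241944 CPM, a ratio of 0.753. miR-194-5p had 189 and 371 CPM, a ratio of 1.97. For every 1000 counts of miR-122-5p there were 1.62 of miR-378a-3p in NCD and 6.22 in HFD. All 4 miRNAs of the acinar list were past 2-fold higher in HFD, with a summed level of 99807 and 221096 CPM. Nearly all of that sum was miR-148a-3p alone, with 99722.5 and 220847 CPM, so it says little of the other members. miR-216b-5p had 47.6 and 129 CPM, and the ratios ran from 2.15 for miR-216a-5p to 3.59 for miR-217-5p. For every 1000 counts of miR-148a-3p there were 5.23 of miR-378a-3p in NCD and 6.81 in HFD, 1.30 times as many. Against the islet miRNA miR-375-3p the numbers were 6.38 and 18.1 per 1000, 2.83 times as many. The summed level of the 9 islet endocrine miRNAs was 88173 and 91491 CPM, with 2 of 9 at least 2-fold higher, a share near the background. The 2 were miR-96-5p, with 6 and 26 counts, and miR-182-5p, with 116 and 245 CPM, a ratio of 2.11. Over the 9 the ratios ran from 0.704 for miR-184-3p to 5.18 for miR-96-5p, and miR-7a-5p had 2246 and 3478 CPM. The summed level of the 5 erythroid miRNAs was 124691 and 98937 CPM, with 0 of 5 past 2-fold. Their ratios ran from 0.722 for miR-486b-5p to 1.87 for miR-451a, and miR-486a-5p had 51624 and 38230.3 CPM. The 0 of 5 depends on the arms listed, since the 3p arms of miR-486a and miR-486b were left out. Both were at least 2-fold higher in HFD, miR-486a-3p with 53.4 and 433 CPM and miR-486b-3p with 2.07 and 29.2 CPM. The part of these sources in the level of miR-378a-3p was not tested.

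**Figure D4:**
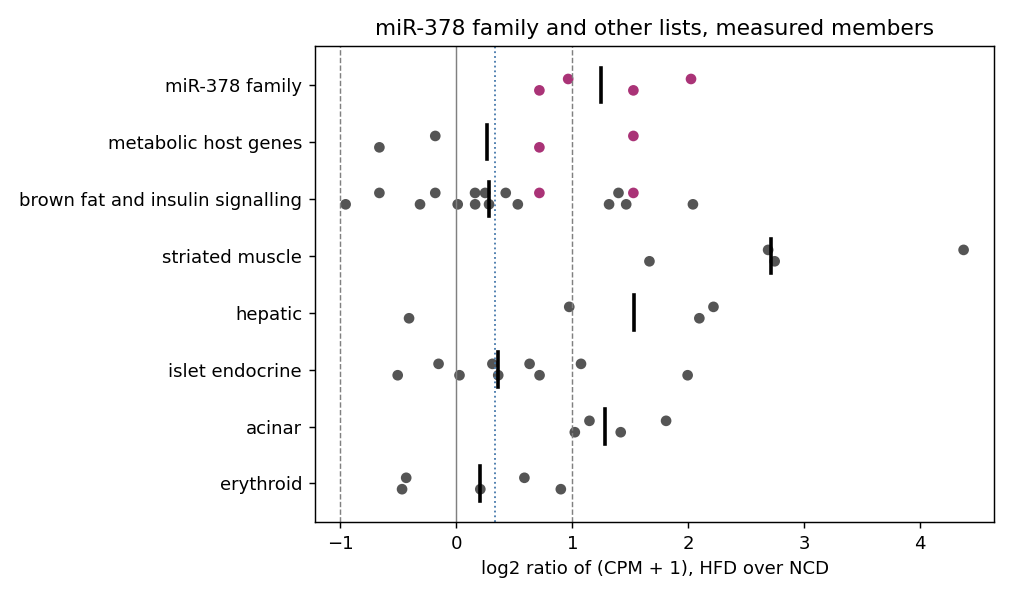
log2 ratio of (CPM + 1), HFD over NCD, of each measured miRNA in the miR-378 family and 7 other lists, with miR-378 members in purple and black bars at each list's median. The dotted line marks the median of all 387 measured known miRNAs (0.33) and the dashed lines 2-fold. The miR-378 members lie between 0.72 and 2.02. The hepatic list runs from -0.41 to 2.22, brown fat and insulin signalling from -0.96 to 2.04, and islet endocrine from -0.51 to 1.99. Metabolic host genes run from -0.66 to 1.53, acinar from 1.02 to 1.81, erythroid from -0.47 to 0.90, and striated muscle from 1.66 to 4.37.

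Base composition was examined because the log2 ratio fell with the GC content of the mature sequence. Over the 180 with a RefSeq sequence among the 207 that reached 100 counts, the fitted line fell by 0.39 in log2 ratio for each 10 percentage points of GC, with a Pearson r of -0.41 as a description of these 2 libraries. The mean GC content was 48.2%, and miR-378b, miR-378c and miR-378d lay above it at 50%, 52.4% and 54.5%. With the line removed, the log2 ratio of miR-378c went from 2.02 to 2.19 and that of miR-378b from 0.96 to 1.04, which put the latter past 2-fold. For the family as a whole the check is void, since only 3 of 5 members had a sequence in the table used.

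The 4 letters GGAG, a motif reported to favour the loading of miRNAs into exosomes of human T cells through hnRNPA2B1, were searched on the miRNA strand after the ratios were known. All 3 sequences held it, from base 9 of miR-378b and from base 10 of miR-378c and miR-378d, within the stretch of 14 bases that they share. It was present in 14.2% of the 1679 mature sequences and in 11.5% of the 338 measured known miRNAs with a sequence. Of these 39 measured miRNAs with GGAG, 7 were at least 2-fold higher and 8 at least 2-fold lower. Of those without it, 75 were higher and 26 lower, and the median log2 ratio was 0.12 with GGAG and 0.35 without. Among the 180 with a sequence that reached 100 counts, 3 of 20 with GGAG were higher and 5 lower, and their median was -0.43. The rest had 30 higher and 6 lower, and their median was 0.33. miR-378b (0.96) and miR-378c (2.02) are themselves among the 39 and were selected with these ratios known, so nothing is read from their place against the medians. The trend with GC content was not removed from these medians. A match says only that these letters are present.

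In the authors' deposited table, miR-378a-3p had a log2 fold change of 1.38 and an FDR of 5.23e-09, and miR-378c a log2 fold change of 1.92 and an FDR of 2.37e-09. In the authors' deposited table the FDR was 0.516 for miR-378a-5p, 0.235 for miR-378b and 1 for miR-378d. So 2 of 5 members were under 0.05 there, both higher in HFD, beside 18.0% of all 2083 entries in either direction and 8.26% higher in HFD. The exact test of edgeR with an assumed coefficient of variation of 0.1 matched the deposited p-values on every entry, with a largest difference of 6.55e-15, so the deposited calls assume a spread that these libraries cannot measure. With an assumed coefficient of variation of 0.4, a value chosen after the data were seen, 0 of 5 members had an FDR under 0.05, beside 1.30% of all entries.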

How the data were processed

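Counts of reads per mature miRNA were deposited by the authors for 1 NCD and 1 HFD library, as whole numbers. The deposited TPM values are each count divided by its library's sum and multiplied by 1000000, without a length term. Per entry, the authors deposited their log2 fold change, its p-value and its FDR. The submitters' processing notes name the build GRCm38. The sources used here name no aligner, miRNA caller or test. Members and lists were chosen with earlier results of these data known.

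CPM was recomputed from the counts. Before the log2 ratio (HFD over NCD) was taken, 1 CPM was added to both values, an entry was measured at 10 counts in the larger library, and 2-fold is a rule of size, not a test. Ratios without a pseudocount carry 95% exact (Clopper-Pearson) intervals conditional on both counts, and ratios between 2 miRNAs exact conditional odds-ratio intervals (scipy 1.17.1). PCR copies may be counted as separate reads, which intervals do not cover. On counts simulated with counting error only, the intervals covered 95.9% of the true ratios over 363 entries. That simulation draws counts as the intervals assume, so it checks the calculation and not the coverage in these libraries. Every member was named. From each list, the 2 members with the highest mean CPM and those with the lowest and highest ratio were to be named, and others were added where a count of 5 or fewer is given. Alternatives used edgeR 4.0.16 and DESeq2 1.42.0. Hairpins were folded with RNAfold 2.7.2.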

Additional observations from a re-analysis of the deposited data

How the results depend on the processing

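miR-378a-3p and miR-378c stayed above 2-fold higher in HFD under every scaling and pseudocount tried. The log2 ratio of miR-378a-3p was 1.27 under the median-of-ratios scaling and 1.38 under TMM, and that of the summed members 1.29 and 1.40. Those factors shifted the median of the 207 known miRNAs that reached 100 counts by -0.26 and -0.15, and the former equalled 1 for both libraries. With a 1.5-fold rule 4 members were higher. Known miRNAs past the rule, higher and lower, then numbered 149 and 70, beside 53 and 10 with a pseudocount of 10 CPM, 170 and 81 with no count minimum, and 40 and 11 with a minimum of 100 counts. Under the median-of-ratios scaling they numbered 78 and 52, against 98 and 37. miR-378b crossed 2-fold with a pseudocount of 0.1 CPM, at 1.05. With an assumed coefficient of variation of 0.4, the members under an FDR of 0.05 went from 2 to 0. No paired analysis was possible because there was 1 library per diet, and leaving out a replicate was likewise not run. Counts of 16 to 28 limit what can be said of miR-378b and miR-378a-5p.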
